A study of Homo sapiens with 4 samples.

Results

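OTX1, OTX2, GBX1, GBX2, EN1, EN2, POU3F1, POU3F2 and POU3F3 are 9 genes of brain patterning factors and class III POU transcription factors. They were chosen by gene symbol, as the OTX, GBX and EN homeobox genes of head patterning and class III POU genes. All 9 of 9 were found among the 25690 gene rows of the count table. The line is H9, of human embryonic stem cells, and RNA was measured by polyA-selected sequencing at day 7 of a culture that the series calls non-neural ectoderm, the early ectoderm outside the neural plate. There are 2 libraries with the genotype label TFAP2A knockout, named for the gene of the AP-2 alpha transcription factor, and 2 wild-type (WT) libraries of the same line and day. The labels used here give no growth protocol, clone or guide, and nothing in them says that a genotype was sampled from separate cultures. The p-values therefore measure no more than the spread among the 4 libraries, and that spread may be technical. Both knockout titles name TFAP2C, whereas TFAP2A stands in their genotype label, in the column headers and in the title of the series.

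In the vertebrate embryo OTX2 marks the forebrain and midbrain and GBX2 the anterior hindbrain, and each represses the other where they meet. The border between them becomes the midbrain-hindbrain boundary, a signalling centre that expresses EN, PAX2, LMX1B, FGF8 and WNT1. In frog embryos the same OTX2 and GBX2 antagonism also divides the placodal ectoderm around the neural plate. Class III POU factors act in the late epiblast, in neural progenitors and in neurons.

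TFAP2A itself kept most of its transcript in the libraries labelled knockout, at 133 and 121 CPM against 171 and 198 CPM in WT (log2 fold change -0.54, SE 0.07, edgeR quasi-likelihood test, adjusted p = 0.000125). CPM is a gene's count scaled to the TMM-adjusted size of its library. TFAP2C, the AP-2 gamma gene that the titles name, was at 8.89 and 5.77 CPM in the libraries labelled knockout against 27.5 and 30.6 CPM in WT (log2 fold change -1.99, SE 0.17, edgeR, adjusted p = 6.66e-06). Both genes were thus lower, TFAP2C by the larger factor, and neither was absent. Which of them was edited cannot be told from these counts. Since the counts are given per gene only, an edit that left the transcript in place would not be seen. The libraries are called by their label throughout. Total counts were 19305868 and 21797850 in the libraries labelled knockout and 17945210 and 17838204 in WT. A count of 0 allows up to 3 counts, or 0.137 to 0.17 CPM depending on the library, and intervals and limits given here cover counting error only. In bulk RNA, fewer cells of a type and less RNA per cell cannot be told apart.

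Most of these genes were transcribed at low levels, and the changes ran in opposite directions within the set. GBX2 and GBX1 were higher in the libraries labelled knockout, whereas OTX1 and POU3F1 were lower. EN1, the gene of the set with the most reads, and POU3F2 did not pass the test. OTX2, EN2 and POU3F3 had too few reads to test. Of the 9 genes 6 passed the filter on low counts, which asks for about 10 counts (0.537 CPM) in at least 2 libraries. Of these, 2 were higher and 2 were lower at an adjusted p under 0.05 in edgeR's quasi-likelihood test over all 15643 genes tested. Among all genes tested 44.2% passed, 21.9% higher and 22.3% lower, so a call by itself does not set a gene of the set apart. The libraries of the genotypes did not overlap for 4 of the 6 genes tested, nor for 73.1% of all genes tested, so a lack of overlap below is a description and no support for a difference. The median log2 fold change was -0.21 over the 6 genes tested and 0.00 over all genes tested. GBX1 and GBX2 passed the filter only through the libraries labelled knockout and OTX1 only through WT. A difference in those directions was thus built into their passing. POU3F1 and POU3F2 reached 0.537 CPM in 1 library labelled knockout and 2 WT libraries, so neither could have passed without WT.

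**Figure D1:**
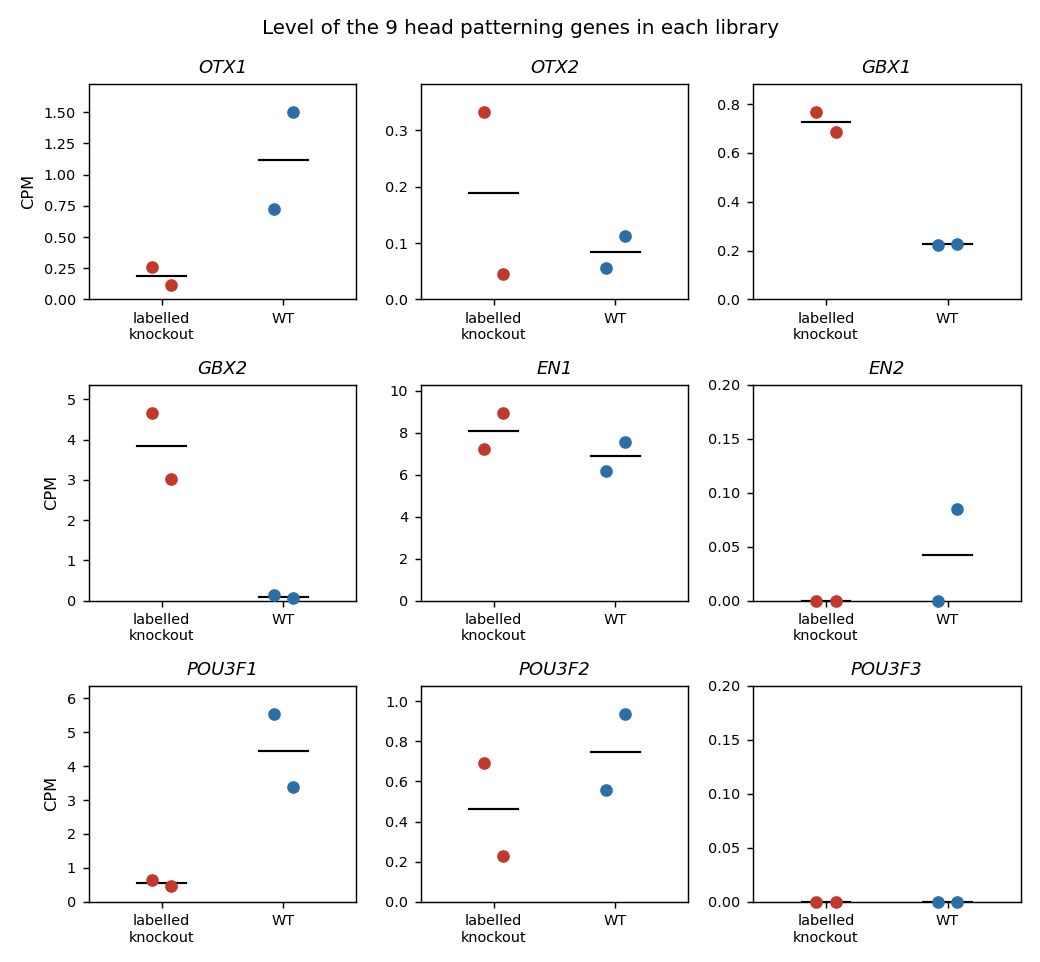
Level of each of the 9 genes in each library, as CPM on a linear axis of its own per gene. Points are libraries (2 labelled knockout on the left, 2 WT on the right) and black lines are group means. GBX1 and GBX2 lie higher, and OTX1 and POU3F1 lower, in both libraries labelled knockout than in either WT library, and POU3F3 is at 0 throughout. Of all genes tested, 73.1% likewise did not overlap.

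GBX2 showed the largest difference of the set. Its product is a homeodomain repressor of the anterior hindbrain that holds back OTX2. It was counted 91 and 66 times in the libraries labelled knockout, or 4.66 and 3.02 CPM, against 2.5 and 1 counts in WT, or 0.14 and 0.0567 CPM. Both WT values lie under the limit that a count of 0 allows, and the groups did not overlap. Its level was 3.84 ± 1.16 CPM against 0.0983 ± 0.0588 CPM in WT (SD, n = 2 each), with a log2 fold change of 5.40 (SE 0.49, edgeR, adjusted p = 5.51e-07). From the summed counts, rounded to whole numbers, the ratio to WT was 33.7 with an exact 95% counting interval of 12.9 to 125. The call held in each of the 11 alternative settings, with log2 fold changes between 5.02 and 5.92.

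GBX1, the paralogue known in the mouse from the developing forebrain and spinal cord, moved the same way from a smaller number of reads. It had 15 and 15 counts in the libraries labelled knockout (0.768 and 0.687 CPM) and 4 and 4 counts in WT (0.224 and 0.227 CPM). The groups did not overlap, and the libraries of each group lay close together. The log2 fold change was 1.66 (SE 0.53, edgeR, adjusted p = 0.0196), and the ratio of summed counts was 3.22 with a counting interval of 1.44 to 8.13. This call was lost with DESeq2 (adjusted p = 0.237) and when any 1 of the 4 libraries was left out, leaving an adjusted p of 0.114 (knockout replicate 1 left out), 0.0841 (knockout replicate 2), 0.107 (WT replicate 1) and 0.0985 (WT replicate 2). GBX1 made up 14.2% and 18.5% of the combined GBX1 and GBX2 counts in the libraries labelled knockout, with exact (Clopper-Pearson) 95% intervals of 8.14 to 22.3% and 10.8 to 28.7%. In WT the shares, from counts rounded to whole numbers, were 66.7% and 80%, with intervals of 22.3 to 95.7% and 28.4 to 99.5%. GBX2 thus had more reads than GBX1 in the libraries labelled knockout, whereas the WT reads are too few to show which paralogue had more.

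Because both GBX genes moved together, the 250 bases before their annotated starts are shown, from RefSeq on GRCh38.p14. GBX2 lies at chr2:236168387-236168636 and GBX1 at chr7:151167695-151167944, both on the minus strand and written 5′ to 3′. Capitals mark matches to the AP-2 consensus GCCNNNGGC, searched on both strands.
GBX2: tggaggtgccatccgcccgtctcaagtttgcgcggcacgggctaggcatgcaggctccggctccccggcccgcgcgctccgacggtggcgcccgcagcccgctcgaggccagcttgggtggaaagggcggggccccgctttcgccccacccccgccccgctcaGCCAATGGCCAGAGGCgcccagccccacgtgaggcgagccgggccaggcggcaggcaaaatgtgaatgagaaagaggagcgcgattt
GBX1: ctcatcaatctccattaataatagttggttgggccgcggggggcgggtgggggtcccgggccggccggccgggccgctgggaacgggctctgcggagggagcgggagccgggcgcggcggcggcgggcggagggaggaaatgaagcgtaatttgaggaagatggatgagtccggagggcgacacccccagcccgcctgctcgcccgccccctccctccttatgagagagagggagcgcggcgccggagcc
The GBX2 window holds 2 overlapping matches, which begin 87 and 80 bases before the start, and the GBX1 window holds none. Over the 8 genes of the set with a RefSeq entry (9 starts, since OTX2 has 2), the consensus was found at 2 starts, those of GBX2 and EN2. It was found in 19.8% of all 35116 promoter windows of this length. The OTX motif TAATCC (5.62% of all windows), the homeodomain core TAATTA (4.35%) and the class III POU octamer ATGCAAAT (1.63%) were in none of the 9. The GC content was 72.0% in the GBX2 window and 71.2% in that of GBX1, against a median of 58.0% over all windows. A match of letters is a description and no binding was measured.

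OTX1, a factor of the cortex and of sense organs in the mouse, was lower in the libraries labelled knockout. It had 5 and 2.5 counts there (0.256 and 0.115 CPM) against 13 and 26.5 counts in WT (0.727 and 1.5 CPM), and the groups did not overlap. The WT libraries differed from each other more than those labelled knockout did. The log2 fold change was -2.65 (SE 0.59, edgeR, adjusted p = 0.00221), and the ratio of summed counts was 0.172 (counting interval 0.0695 to 0.372). With so few reads the value rested on single libraries. Without WT replicate 2 the call was lost (log2 fold change -2.06, adjusted p = 0.0551), and without knockout replicate 1 the log2 fold change was -3.49.

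OTX2, the factor that specifies the forebrain and midbrain, was close to undetected in both genotypes. It had 6.5 and 1 counts in the libraries labelled knockout (0.333 and 0.0458 CPM) and 1 and 2 counts in WT (0.0559 and 0.113 CPM). The groups overlapped, and only knockout replicate 1 lay above the limit of 3 counts. The ratio of summed counts was 2.29 with a counting interval of 0.55 to 13.4, so neither a rise nor a fall was detectable at this depth. In a fit without the filter on low counts, its adjusted p was 0.605 in edgeR. OTX2-AS1, the non-coding gene next to it, had 1 and 0 counts in the libraries labelled knockout and 0 and 0.5 counts in WT. CRX, the third member of the OTX family and a photoreceptor factor, had 1 and 0 counts against 0 in both WT libraries.

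OTX2 made up 6.19% and 1.49% of the combined OTX2 and GBX2 counts in the libraries labelled knockout, with exact intervals of 2.3 to 13% and 0.0378 to 8.04%. In WT its share, from counts rounded to whole numbers, was 33.3% and 66.7%, with intervals of 0.84 to 90.6% and 9.43 to 99.2%. The shares did not overlap between the genotypes, but the counting intervals did, except between knockout replicate 2 and WT replicate 2. Within the OTX pair, OTX2 took 54.5% and 33.3% of the reads in the libraries labelled knockout, with intervals of 23.4 to 83.3% and 0.84 to 90.6%. It took 7.14% in each WT library, with intervals of 0.181 to 33.9% and 0.877 to 23.5%. These shares did not overlap between the genotypes either, whereas each interval of a library labelled knockout overlapped that of at least 1 WT library. Overlap of such intervals shows neither a difference nor its absence. With 2 libraries against 2, an exact two-sided permutation test cannot go below 0.333, so these shares were not tested.

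EN1 encodes an engrailed homeodomain repressor of the midbrain-hindbrain boundary that also patterns ventral limb ectoderm. It had the most reads of the set in both genotypes, at 7.22 and 8.94 CPM (141 and 195 counts) in the libraries labelled knockout and 6.18 and 7.57 CPM (110.5 and 133.5 counts) in WT. The groups overlapped. Its log2 fold change was 0.24 (SE 0.17, edgeR, adjusted p = 0.279). The counting interval of the ratio was 1 to 1.40. It leaves out the spread between libraries, so a fall or a larger rise is not excluded. EN2, its paralogue of the midbrain and cerebellum, had 0 counts in both libraries labelled knockout and 0 and 1.5 counts in WT, all under the limit of 3 counts.

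POU3F1 is known in the mouse from the late epiblast, from neural commitment and from myelinating Schwann cells. It was lower in the libraries labelled knockout, with 12.5 and 10 counts (0.64 and 0.458 CPM) against 99 and 59.5 counts in WT (5.54 and 3.37 CPM). The groups did not overlap, and WT replicate 1 was the highest library. The level was 0.549 ± 0.129 CPM against 4.46 ± 1.53 CPM in WT (SD, n = 2 each), a log2 fold change of -3.05 (SE 0.33, edgeR, adjusted p = 4.47e-06). Each of the 11 alternatives gave the same call, with log2 fold changes between -3.36 and -2.67. Its promoter window, chr1:38046794-38047043 on the minus strand (GRCh38.p14, RefSeq), is printed as well. Like the window of GBX1, which was higher, it holds no match to the AP-2 consensus, so it has no capitals.
POU3F1: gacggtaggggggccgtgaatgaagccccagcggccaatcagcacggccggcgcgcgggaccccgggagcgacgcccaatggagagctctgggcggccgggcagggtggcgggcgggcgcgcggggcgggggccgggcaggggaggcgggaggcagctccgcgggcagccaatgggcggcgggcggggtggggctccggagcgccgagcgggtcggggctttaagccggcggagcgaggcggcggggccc
Its GC content was 80.8%.

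POU3F2, a factor of neuronal differentiation, did not move with its paralogue in these libraries. It had 13.5 and 5 counts in the libraries labelled knockout (0.691 and 0.229 CPM) and 10 and 16.5 counts in WT (0.559 and 0.936 CPM), with overlapping groups. The log2 fold change was -0.66 (SE 0.54, edgeR, adjusted p = 0.346). The counting interval of the ratio ran from 0.307 to 1.13, so counting error alone already allows a fall of that size or a small rise. POU3F3, expressed in the developing brain and kidney, had 0 counts in all 4 libraries. POU3F4, the remaining class III gene, had 0 and 1 counts in the libraries labelled knockout and the same in WT.

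**Figure D2:**
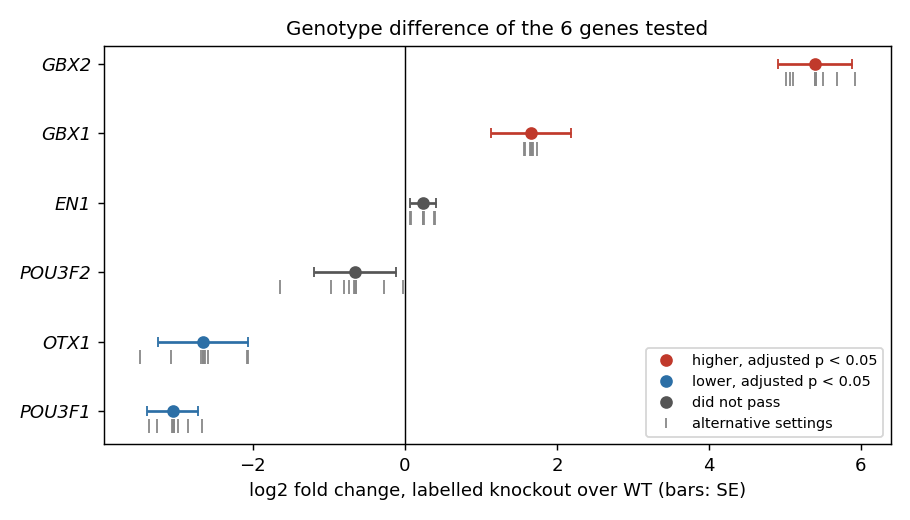
Log2 fold change of the libraries labelled knockout over WT for the 6 genes tested, with bars of 1 standard error and grey ticks for the values under the 11 alternative settings. GBX2 and GBX1 lie to the right of 0, OTX1 and POU3F1 to the left, and the ticks of POU3F2 run from -1.65 to -0.03.

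Levels of different genes can be set side by side only per length, here as CPM per kilobase of the longest GENCODE protein-coding transcript. On this scale the order of mean levels in the libraries labelled knockout was EN1 (3.29), GBX2 (1.81), GBX1 (0.667), POU3F1 (0.252), POU3F2 (0.0943), OTX1 (0.0648) and OTX2 (0.0631). EN1, GBX2, GBX1, POU3F1 and POU3F2 did not overlap their neighbours in this order down to POU3F2, whereas POU3F2, OTX1 and OTX2 overlapped. In WT the order was EN1 (2.80), POU3F1 (2.04), OTX1 (0.39), GBX1 (0.206), POU3F2 (0.153), GBX2 (0.0463), OTX2 (0.0282) and EN2 (0.0125). EN1 and POU3F1 overlapped in WT, as did GBX2 and OTX2. GBX2 thus stood above POU3F1 in the libraries labelled knockout and below it in WT. Ranks by mean CPM over all libraries are not scaled to length and are therefore rough. By this measure EN1 lay above 47.2% of the genes with any count, POU3F1 above 37.8%, GBX2 above 36% and OTX2 above 18%.

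**Figure D3:**
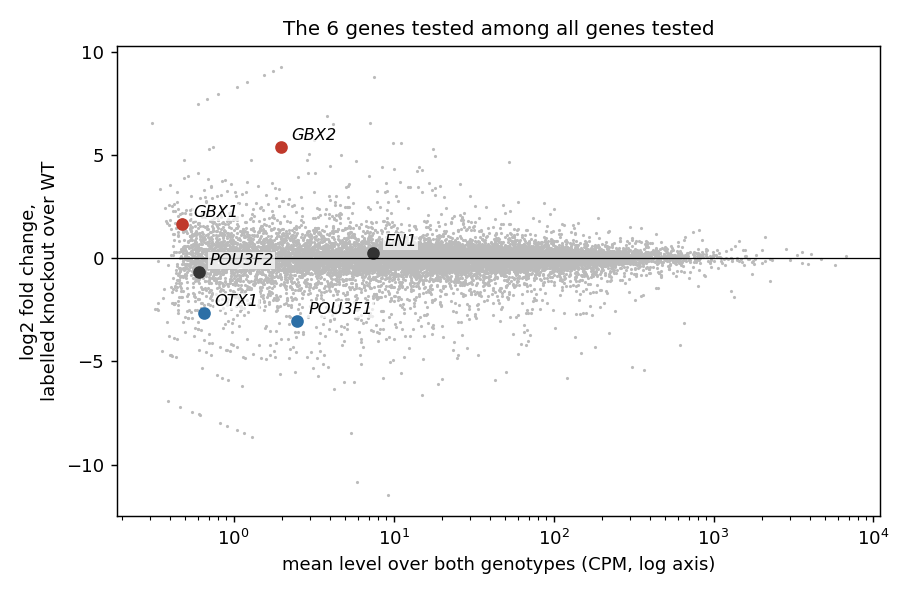
Log2 fold change of the libraries labelled knockout over WT against mean CPM over both genotypes (log axis) for all 15643 genes tested (grey) and the 6 genes of the set tested (red higher, blue lower, black did not pass). GBX2 lies at 5.40, POU3F1 at -3.05 and EN1 at 0.24, all at low mean levels.

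No neighbour that could be tested passed in the direction of the member beside it. Of the 18 nearest rows, 1 on each side of each gene, 6 had enough counts to test and 1 passed. AGAP3, next to GBX1, was lower at 75.8 and 73.5 CPM in the libraries labelled knockout against 88.4 and 82.9 CPM in WT (log2 fold change -0.20, edgeR, adjusted p = 0.0179), opposite in sign to GBX1. This small difference was lost in 3 of 11 alternatives, DESeq2 (adjusted p = 0.0945), without knockout replicate 2 (0.0972) and without WT replicate 1 (0.143). AGAP1, next to GBX2, was at 99.3 and 98.7 CPM against 95.7 and 99.0 CPM in WT, and UTP11L, next to POU3F1, at 26.0 and 27.5 CPM against 25.6 and 24.4 CPM, and neither passed. No member overlapped a neighbouring row. GBX2 lies on chromosome 2 from 237074307 to 237076652 and EN1 from 119599747 to 119605759, GBX1 on chromosome 7 from 150845676 to 150864635 and POU3F1 on chromosome 1 from 38509523 to 38512450, all on the minus strand. OTX1 lies on the plus strand of chromosome 2 from 63277192 to 63284966. These positions are in the table's own build, which is not GRCh38.

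By a rule of likeness over the 4 libraries (Euclidean distance of log2 CPM centred per gene, among tested genes averaging 1 CPM or more), GPR64, TFPI2 and ZNF835 lay nearest to GBX2, at distances of 0.239, 0.453 and 0.457. GPR64, an adhesion receptor gene, was at 5.52 CPM against 0.197 CPM in WT, and TFPI2, a protease inhibitor gene, at 28.8 CPM against 1.49 CPM. Nearest to EN1 were PITPNC1, LINC00669 and INCA1, at 0.0164, 0.0413 and 0.0626. With 4 libraries in 2 groups, such a distance mostly ranks genes by fold change.

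Genes listed for the midbrain-hindbrain boundary, among them FGF feedback genes that do not mark the boundary by themselves, moved in both directions. Of 16, 9 could be tested, 3 rose, 3 fell and 3 did not pass (median log2 fold change -0.02). For this list and those below, the shares over all genes tested were 21.9% higher and 22.3% lower. PAX2, a boundary and ear factor, rose to 7.07 ± 0.112 CPM against 0.874 ± 0.208 in WT (log2 fold change 3.01, SE 0.24). DUSP6 and SPRY1, feedback inhibitors of FGF signalling, rose to 26.6 ± 3.95 and 13.0 ± 0.449 CPM against 6.19 ± 0.735 and 4.69 ± 0.703 CPM in WT. LMX1B, a LIM-homeodomain factor that maintains boundary WNT1, fell to 1.39 ± 0.058 CPM against 85.0 ± 11.3 in WT (log2 fold change -5.91, SE 0.14, SD over n = 2 each). SPRY2, another FGF feedback inhibitor, fell to 22.2 CPM against 43.5 CPM in WT. ETV4, an ETS factor downstream of FGF, was at 0.694 CPM against 1.49 CPM, a call lost in 4 of 11 alternatives, DESeq2 (adjusted p = 0.224), the replicate block (0.0544), without knockout replicate 1 (0.157) and without WT replicate 1 (0.212). Of the boundary signals, FGF8 was almost unread, with 1.5 and 0 counts in the libraries labelled knockout and 0 in WT. WNT1 had 0 against 1 and 0 counts, and FGF17 had 3 and 5.5 against 1 and 0 counts. FGF18 had more reads, with 28.5 and 39.5 counts against 14 and 21 in WT. It did not pass (log2 fold change 0.73, SE 0.33, edgeR, adjusted p = 0.0894).

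Forebrain and eye field genes were mostly undetected, like OTX2. Of 16, only 3 could be tested and 5 had 0 counts in every library. EMX2, a factor of the dorsal forebrain and urogenital tract, rose to 5.17 and 9.49 CPM in the libraries labelled knockout against 1.23 and 1.28 CPM in WT (log2 fold change 2.57, SE 0.33, edgeR, adjusted p = 0.000135). LHX2 was at 5.06 CPM against 3.23 CPM, a call lost in 3 of 11 alternatives, DESeq2 (adjusted p = 0.173), without knockout replicate 1 (0.0643) and without WT replicate 2 (0.163). HESX1 did not pass. RAX and FEZF2, of the eye field and forebrain, were at 0 in all 4 libraries.

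Hindbrain genes were the opposite case, with 13 of 16 testable and summed levels of 599 and 574 CPM in the libraries labelled knockout against 601 and 603 CPM in WT. Of these 13, 5 rose, 5 fell and 3 did not pass (median log2 fold change 0.06). HOXD3 and HOXD4, of the posterior hindbrain and neck, rose to 3.51 and 4.50 CPM against 0.505 and 0.846 CPM in WT. CYP26B1, a retinoic acid-degrading enzyme of the hindbrain segments, rose to 74.8 ± 13.2 CPM against 33.4 ± 1.03 CPM. HOXA3 was at 68.5 CPM against 60.1 CPM, a call lost in 3 of 11 alternatives, DESeq2 (adjusted p = 0.153), without knockout replicate 2 (0.138) and without WT replicate 1 (0.228). HOXB1 (54.4 against 74.1 CPM in WT), EPHA4 (44.5 against 58.3), HOXB4 and HOXB3 were among those that fell. HOXB4 (65.1 against 76.4) lost its call with DESeq2 (adjusted p = 0.0679) and when knockout replicate 2 (0.157) or WT replicate 1 (0.0987) was left out. HOXB3 (102.5 against 118.9) lost it without WT replicate 1 (adjusted p = 0.0624).

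**Figure D4:**
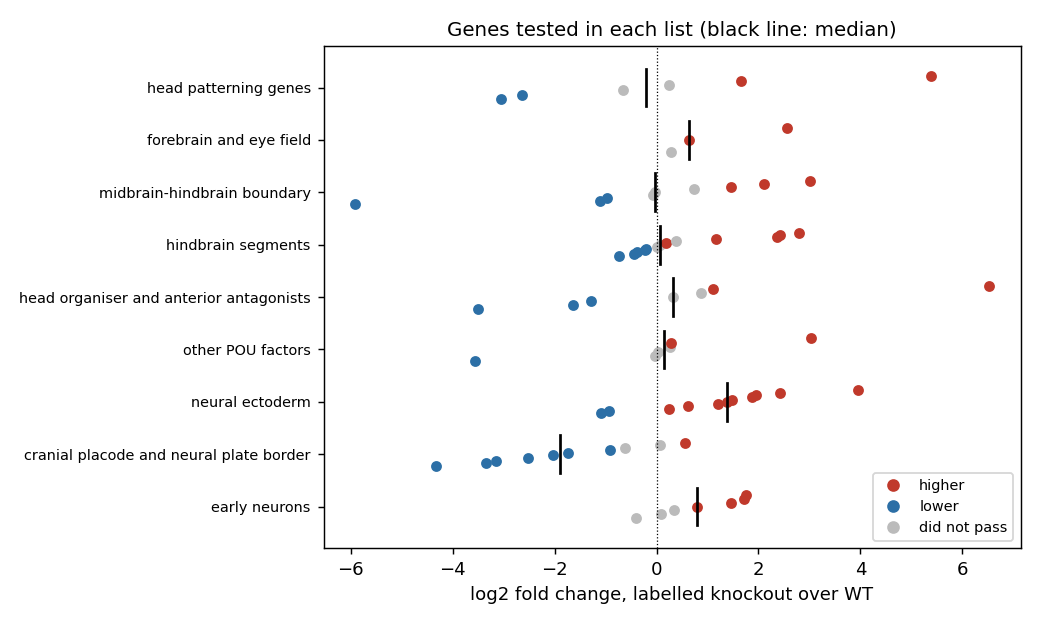
Log2 fold change of the libraries labelled knockout over WT for each gene tested, in the head patterning set and in 8 lists of related genes (red higher, blue lower, grey did not pass, black line median). The placode list lies mostly left of 0 with a median of -1.89, and the neural ectoderm list mostly right of 0 with a median of 1.39.

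Secreted antagonists and organiser factors of the anterior head split as well, with 2 of 7 tested higher, 3 lower and 2 that did not pass (median log2 fold change 0.32). LHX1, a LIM-homeodomain factor of the head organiser, had 174 and 170 counts in the libraries labelled knockout against 1.5 and 1 in WT, a ratio of 148 with a counting interval of 40.6 to 1225. FRZB, a secreted WNT inhibitor, rose to 26.2 ± 3.96 CPM against 12.1 ± 3.38 CPM. DKK1, another WNT antagonist, fell to 1.19 CPM against 13.2 CPM in WT, SHISA2 to 16.0 CPM against 39.4 CPM, and the activin inhibitor gene FST to 0.818 CPM against 2.59 CPM. CER1 and HHEX, further markers of the anterior organiser, had at most 2.5 counts in any library.

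Among the POU genes outside the set, 2 of 6 tested rose, 1 fell and 3 did not pass (median log2 fold change 0.14). POU2F3, a factor of epidermal keratinocytes and tuft cells, had 0 and 3 counts in the libraries labelled knockout against 12 and 21 in WT, so WT was 12.8-fold higher with a counting interval of 4.02 to 65.3. POU2F1, the widely expressed octamer factor, rose to 186 CPM against 153 CPM. POU5F1, the pluripotency factor, had 12.5 and 19 counts against 15.5 and 10 in WT and did not pass.

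Neural ectoderm genes, which share their tissue with the class III POU factors, moved opposite to POU3F1 in most cases. Of 16, 11 could be tested, 9 rose and 2 fell (median log2 fold change 1.39). Over all genes tested 21.9% were higher and 22.3% lower. ZIC1, ZIC2, ZIC5, HES5 and LHX5 had too few reads to test. SOX3 rose to 6.79 ± 1.01 CPM against 1.75 ± 0.0172 CPM in WT. SOX1 had 25 and 15 counts against 1 and 1 in WT, a ratio of 17.2 with a counting interval of 4.46 to 147. SOX2 was at 51.8 and 31.4 CPM against 11.7 and 10.9 CPM, a call that did not hold with limma-voom (adjusted p = 0.0791), without the filter on low counts (0.0881), or when WT replicate 1 (0.114) or WT replicate 2 (0.248) was left out. FABP7, a radial glia gene, was at 1.96 CPM against 0.705 CPM, and its call was lost with DESeq2 (adjusted p = 0.0579). The 2 that fell were NCAM1 (91.7 against 195 CPM in WT) and NES (135 against 259 CPM). Genes of early neurons showed 4 higher and 3 that did not pass among 7 tested (median log2 fold change 0.80). ISL1, a factor of neurogenesis, rose to 11.3 CPM against 3.41 CPM in WT. ELAVL3 and MAPT were higher too, each with a call lost in 3 of 11 alternatives. For ELAVL3 these were DESeq2 (adjusted p = 0.112) and the fits that left out knockout replicate 2 (0.153) or WT replicate 1 (0.0584). MAPT lost it with DESeq2 (adjusted p = 0.173) and when knockout replicate 2 (0.0696) or WT replicate 2 (0.0704) was left out.

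Cranial placode and neural plate border genes, the ectoderm that OTX2 and GBX2 divide in frog embryos, were mostly lower. Of 10 tested, 7 were lower, 1 was higher and 2 did not pass (median log2 fold change -1.89). Over all genes tested, 22.3% were lower and 21.9% higher. IRX1, an Iroquois homeobox factor, fell to 0.23 CPM against 4.49 CPM in WT, and the placode coactivator gene EYA2 to 3.13 CPM against 31.8 CPM. PAX7, FOXE3 and FOXI3 fell to 0.503, 0.54 and 1.19 CPM against 4.35, 3.21 and 4.93 CPM. EYA1 and SOX9 fell as well, and DACH1 rose to 101 CPM against 68.3 CPM. PAX2 and GBX2, both also of the posterior placodal area that forms the ear, thus lay higher while EYA1, EYA2 and FOXI3 lay lower in the same libraries.

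Non-neural ectoderm markers were detected throughout and 12 of 16 were lower, against 22.3% of all genes tested. TFAP2A and TFAP2C, which the genotype label and the titles name, are among these 12 and are not independent of the genotype. The list summed to 2737 and 2629 CPM in the libraries labelled knockout against 3978 and 4330 CPM in WT. Markers of other cell types moved with the genotype too. Those of amnion and trophoblast summed to 98.5 and 62.4 CPM against 1474 and 1566 CPM in WT (4 of 4 tested lower), with CGA at 0 in both libraries labelled knockout. Endothelium and blood markers summed to 19.9 and 19.1 CPM against 60.4 and 59.9 CPM (4 of 5 lower, PECAM1 at 0 throughout). Mesoderm and endoderm markers summed to 361 and 397 CPM against 601 and 599 CPM (4 of 6 lower, 1 higher, TBXT and EOMES at 0 throughout). Of 5 pluripotency markers tested, 1 was higher, 1 lower and 3 did not pass. Their summed level of 561 and 475 CPM against 657 and 715 CPM was mostly LIN28A, which fell to 370 CPM against 565 CPM in WT, and NANOG had 1 count or less in each library. The part of these cell types in the differences of the GBX, OTX and POU3F genes was not tested.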

How the data were processed

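RNA-seq libraries of H9 cells at day 7 were compared, 2 labelled TFAP2A knockout and 2 WT, grouped by the genotype label. The authors deposited a single table of estimated counts per gene, not scaled to library size. TopHat, HOMER, DESeq2 and hg38 are named in its making, per the submitters' processing notes. The handling of strand, the annotation and the tool versions were not given in the sources used here. All values were multiples of 0.5, and 37% were not whole. Before modelling, each was rounded to a whole number, a value ending in 0.5 to the even number. Table positions were not those of GRCh38: of 22707 genes matched by symbol and chromosome, 4.38% began within 2000 bp of their GRCh38.p14 start. Genes were filtered with filterByExpr and tested with edgeR 4.0.16 (TMM, glmQLFit with robust estimation, glmQLFTest, Benjamini-Hochberg, threshold 0.05) in R 4.3.3. The adjusted p-values of genes given without a named tool are from this fit. The standard error is the log2 fold change over the square root of F. Alternatives were DESeq2 1.42.0, limma-voom (limma 3.58.1), 2 other scalings, no filter, rounding down, the replicate block and leaving out each library. The chi-square per degree of freedom between replicates was 4.16 in the libraries labelled knockout and 4.31 in WT, above sampling noise.

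The members and lists were chosen with earlier results of these data known. Named genes were all 9 members, the TFAP2A gene, each member's nearest rows, 3 genes most alike to EN1 and GBX2, and up to 5 genes with the largest change among those past the threshold (where fewer than 2 passed, the 2 with the highest mean CPM) in each list of forebrain, midbrain-hindbrain boundary, hindbrain, head organiser, other POU, neural ectoderm, placode and early neuron genes. Other genes were chosen after their values were seen, among them TFAP2C, LIN28A, SPRY2, FGF18, HOXA3, HOXB1, HOXB3, HOXB4, EPHA4, NCAM1, NES, EYA1, SOX9, DACH1 and genes named for low or 0 counts. Some genes that this rule names are not reported here. Protein sequences were not used here.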

Additional observations from a re-analysis of the deposited data

How the results depend on the processing

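Over 11 alternatives, 68 named genes gave 748 comparisons with the reported fit. In 713 of these the direction and the side of the threshold were the same, in 34 a call was lost, in none was one gained, and in 1 the sign turned. The sign turned for AGAP1, which did not pass, at a log2 fold change of -0.0053 without WT replicate 1 against 0.02 in all libraries. Its range with a library left out was -0.0053 to 0.0465. The calls lost fell on 12 genes, among them GBX1 in 5 alternatives and OTX1 in 1. GBX2 and POU3F1 passed in all 11. Members higher numbered 2 in the reported fit and 1 with DESeq2, and 1 to 1 with a library left out. Members lower numbered 2, and 1 to 2 with a library left out. Over all genes, 3427 were higher in the reported fit and 2263 with DESeq2, and the cause was not tested. With a library left out, 2535 to 2922 were higher and 2697 to 2919 lower. A fit with 3 libraries assumes that the lone library of a genotype varies like the other group. With the replicate number as a block, 3050 genes were higher and 3154 lower, and the block changed no call of the members. The numbers are not known to pair libraries: deviations of same-numbered libraries correlated at -0.032 over 11979 genes. Depth limits OTX2, EN2 and POU3F3, which had at most 6.5 counts in a library.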
